A study of Homo sapiens with 6 samples.

Results

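The RNA of 10 genes at the core of Wnt and beta-catenin signalling was followed in KMS27 myeloma cells with and without overexpression of HA-TAZ. The genes were chosen by symbol and grouped here by role. LRP6 encodes a Wnt co-receptor, APC, AXIN1, AXIN2 and GSK3B encode parts of the complex that marks beta-catenin for degradation, and CTNNB1 encodes beta-catenin itself. TCF7, TCF7L2 and LEF1 encode the DNA-binding factors that beta-catenin joins in the nucleus, and BCL9 encodes an adaptor that binds beta-catenin there. The 10 symbols matched 11 of the 63677 gene IDs, because BCL9 has 2, and 128 of the 215170 transcripts.

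Without a Wnt signal, the scaffold proteins axin and APC hold beta-catenin next to the kinases CK1 and GSK3, which phosphorylate it. A ubiquitin ligase then recognises phosphorylated beta-catenin, and the proteasome degrades it. When a Wnt ligand binds a Frizzled receptor together with LRP6 or its relative LRP5, axin is drawn to the membrane, beta-catenin accumulates, and TCF and LEF factors switch from repressing to activating their target genes. AXIN2 is a textbook target of this pathway and feeds back on it as a scaffold of the complex. The pathway acts on the amount and the phosphorylation of the beta-catenin protein, and RNA levels measure neither.

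KMS27 is an established human line of malignant plasma cells. The labels give 3 wild type samples and 3 samples with HA-TAZ, which the series describes as an overexpression. HA stands for a small peptide tag. TAZ, the product of WWTR1, is a coactivator of the Hippo pathway that binds TEAD factors and has also been described in the destruction complex of other cells. The promoter of the construct, whether the cells were a pool or a clone, and whether control cells carried a construct are not given in the sources used here, although the titles of the wild type samples also contain HA. The deposited table has 3 value columns that do not name TAZ and carry the name scr, which is in no label. By elimination they were taken as the wild type libraries, here controls a, b and c, with no link to single samples. Nothing says that the libraries of a group came from separate cultures, so p-values measure the spread between these libraries, which may be technical.

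Values are TPM, a share of the transcripts in a library that is corrected for their length and sums to 1000000 per library. Depth per library is unknown. The authors' deposited table implies 52795484 estimated counts for a typical library. Between 20534 and 23807 genes reached 1 TPM in a library. WWTR1 was read first as a check of the labels, and had 293, 306 and 293 TPM in the HA-TAZ libraries and 2.69, 2.22 and 1.69 TPM in controls a, b and c, and its relative YAP1 did not exceed 0.00874 TPM. Deposited TPM was lower in HA-TAZ libraries for most genes, with a median log2 fold change of -0.27 over the 22651 genes tested. Each library was therefore also divided by a factor, which brought that median to 0.0027, and the result is called scaled TPM. Fold changes below are from limma on log2(scaled TPM + 1), HA-TAZ minus control, unless the deposited scale is named.

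The members spanned a wide range of levels. In control libraries the mean level as deposited was 36.1 ± 5.61 TPM for GSK3B, 26.7 ± 1.17 TPM for CTNNB1 and 17.7 ± 1.64 TPM for both BCL9 gene IDs together (SD, n = 3 each). APC, AXIN1 and LEF1 followed at 13.5, 12.5 and 11.2 TPM, and their ranges over the 3 control libraries overlapped from each to the next. TCF7 and LRP6, at 5.61 and 5.35 TPM, also overlapped. AXIN2 had a mean of 2.44 TPM in controls. TCF7L2 had the lowest level of the members, 0.278 ± 0.0916 TPM (SD, n = 3). In HA-TAZ libraries GSK3B and CTNNB1 no longer stood apart, with means of 25.2 and 25.6 TPM and overlapping ranges.

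**Figure D1:**
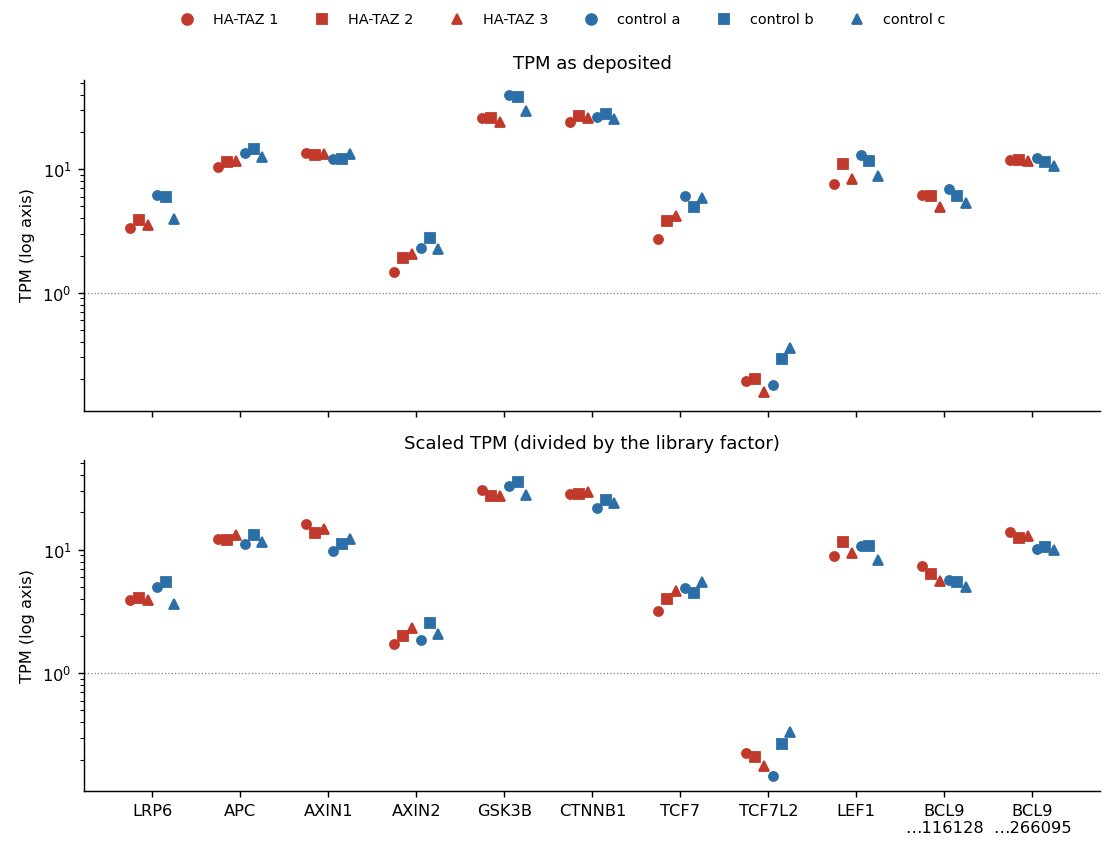
Level of each member in each library, in TPM on a log axis, as deposited (top) and scaled (bottom). Each point is a library, red for HA-TAZ and blue for control, and the dotted line marks 1 TPM. TCF7L2 lies below the line in all 6 libraries. In the top panel all red points of GSK3B, LRP6, APC, AXIN2 and TCF7 lie below all blue ones, and in the bottom panel the groups overlap for each of these 5.

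Most members did not pass the test over all genes. Of 10 gene IDs tested, 1 was called higher and 0 lower at a limma Benjamini-Hochberg adjusted p under 0.05. Over all 22651 tested genes, 8.50% were called, 6.15% higher and 2.34% lower. An unadjusted p under 0.05 was found for 3 of the 10, all with a positive fold change: AXIN1, CTNNB1 and the second BCL9 gene ID. Over all tested genes the share was 31.0%. The median log2 fold change of the 10 was 0.04, and 6 of the 10 were positive. The 10 gene IDs stand for 9 genes, because both IDs of BCL9 are among them, and both were positive. With TPM as deposited their median was -0.27, the same as that of all tested genes to 2 decimals, and 2 of the 10 were positive. The groups did not overlap for 3 of the 10 on the scaled values, where 38.7% of all tested genes did not overlap. On the deposited values they did not overlap for 5 of the 10, against 48.0% of all tested genes.

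**Figure D2:**
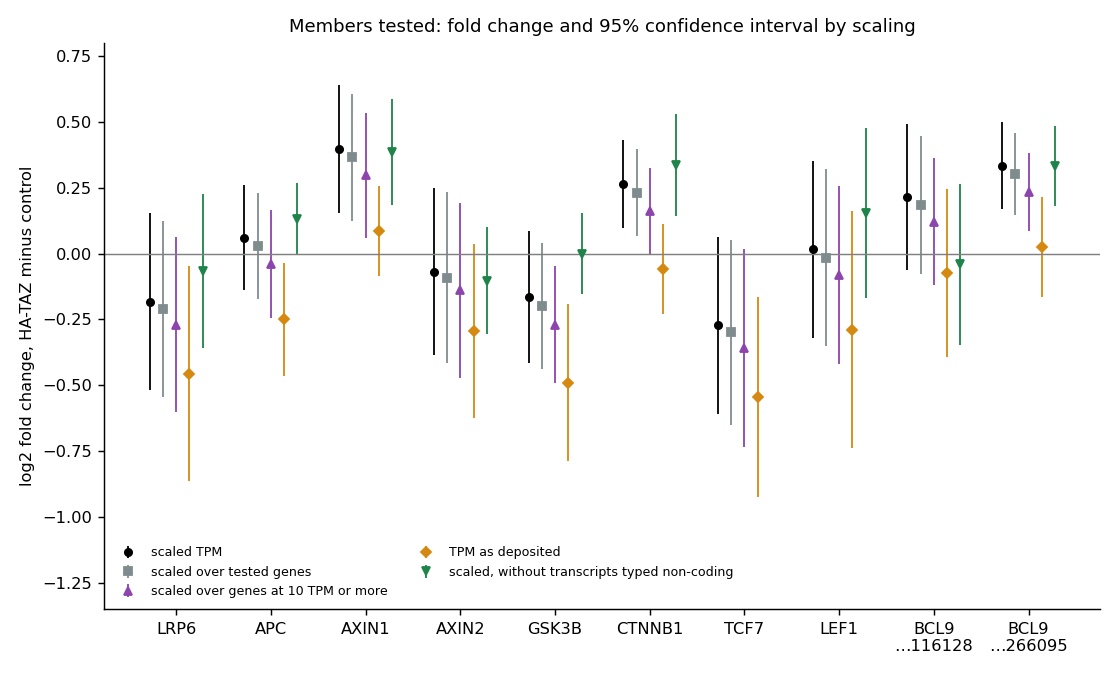
Log2 fold change of each tested member, HA-TAZ minus control, with its 95% confidence interval from limma. Symbols and colours show 3 ways to scale the libraries, the values as deposited, and the scaled values without transcripts typed as non-coding. AXIN1 and the second BCL9 gene ID stay above 0 under all 5, and LRP6, AXIN2, GSK3B and TCF7 stay below 0 wherever they have a value.

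The co-receptor LRP6 (ENSG00000070018) was at 3.34, 3.87 and 3.51 TPM in HA-TAZ 1, 2 and 3. It was at 6.16, 5.97 and 3.93 TPM in controls a, b and c. As deposited all HA-TAZ libraries lay below all controls, and control c was close to them. After scaling, control c, at 3.64, was the lowest of the 6 and the groups overlapped. The log2 fold change was -0.18 (standard error 0.14, limma with Benjamini-Hochberg, adjusted p = 0.409), and the 95% interval ran from -0.52 to 0.16. The main coding transcript, ENST00000261349.4, had a log2 fold change of 0.03 (limma with Benjamini-Hochberg, adjusted p = 0.901). ENST00000543091.1, the next in level, stood at -0.01 (limma with Benjamini-Hochberg, adjusted p = 0.963). The highest control value of LRP6 contained 1.59 TPM of ENST00000540527.1 in control a, against 0.614 and 0.104 TPM in controls b and c and at most 0.138 TPM in HA-TAZ libraries. The authors' deposited table gives no statistics for that transcript.

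APC (ENSG00000134982), the large scaffold of the complex and a tumour suppressor of the colon, was at 10.4, 11.5 and 11.8 TPM in HA-TAZ libraries. Controls a, b and c had 13.6, 14.5 and 12.5 TPM. All HA-TAZ libraries were lower as deposited, but the groups overlapped after scaling, with means of 12.5 ± 0.622 and 11.9 ± 1.07 scaled TPM (SD, n = 3 each). The log2 fold change was 0.06 (standard error 0.08, 95% interval from -0.14 to 0.26; limma with Benjamini-Hochberg, adjusted p = 0.653). Its direction depended on the scaling: -0.25 as deposited and -0.04 when factors were taken from genes with a mean of at least 10 TPM. Its 2 leading transcripts, ENST00000457016.1 and ENST00000508376.2, had log2 fold changes of 0.07 and 0.11. Another gene, CTC-554D6.1, shares exons with APC on the same strand in GENCODE release 29 and ranged from 1.32 to 11.1 TPM among the libraries, so the split of reads between the genes is uncertain.

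AXIN1 (ENSG00000103126), the constitutive scaffold of the complex, had nearly equal deposited levels in all libraries. They were 13.6, 13.1 and 13.2 TPM in HA-TAZ libraries and 12.0, 12.2 and 13.2 TPM in controls. After scaling all HA-TAZ libraries were higher, from 13.7 to 16.0 against 9.79 to 12.2. The log2 fold change of 0.40 (standard error 0.10, 95% interval from 0.15 to 0.64) did not pass the threshold (limma with Benjamini-Hochberg, adjusted p = 0.062). As deposited it was 0.09. The transcript that carried most of the gene, ENST00000354866.3, held 70.5% of AXIN1 in HA-TAZ libraries and 71.3% in controls. The authors' deposited table gives it a q-value of 0.0208 and an effect of 0.29 in natural log units (standard error 0.09). In limma over transcripts it did not pass (log2 fold change 0.38, Benjamini-Hochberg adjusted p = 0.133). ENST00000262320.3, the second in level, stood at 0.24 (limma with Benjamini-Hochberg, adjusted p = 0.423).

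AXIN2 (ENSG00000168646), the inducible scaffold, was low in every library. HA-TAZ libraries had 1.47, 1.90 and 2.07 TPM and controls 2.29, 2.79 and 2.25 TPM. The groups were separate as deposited and overlapped after scaling. Its log2 fold change was -0.07 (standard error 0.13, 95% interval from -0.39 to 0.25; limma with Benjamini-Hochberg, adjusted p = 0.754). The sign was not stable: without HA-TAZ 1 the value was 0.0008 and without control b it was 0.02. Neither of its leading transcripts, ENST00000307078.5 and ENST00000375702.5, reached a mean of 1 TPM. The authors' deposited table gave them effects of -0.12 and -0.14 in natural log units, with q-values of 0.749 and 0.837. AC004805.1 shares exons with AXIN2 on the same strand in GENCODE release 29. No values of AC004805.1 are given here, so whether reads were split between the genes is not known.

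GSK3B (ENSG00000082701), a kinase of the complex, was the only member called on the deposited scale, where it was lower in HA-TAZ libraries. Its HA-TAZ libraries had 25.7, 25.8 and 24.1 TPM, against 40.0, 38.6 and 29.7 TPM in controls. On this scale its log2 fold change was -0.49 (limma with Benjamini-Hochberg, adjusted p = 0.049), where 13.5% of all tested genes were called lower. Scaled values overlapped, because control c lay inside the range of the HA-TAZ libraries. The scaled log2 fold change was -0.16 (standard error 0.10, 95% interval from -0.42 to 0.09; limma with Benjamini-Hochberg, adjusted p = 0.323).

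None of the 4 transcripts of GSK3B passed the test, and their log2 fold changes ranged from -0.53 to 0.02. The main coding transcript, ENST00000264235.8, had a log2 fold change of 0.02 (limma with Benjamini-Hochberg, adjusted p = 0.879), and the authors' deposited table gave it an effect of 0.01 (standard error 0.05) in natural log units, from a mean of 7735 estimated counts. The other coding transcript, ENST00000316626.5, had a log2 fold change of -0.06 (limma with Benjamini-Hochberg, adjusted p = 0.736). The second in level was ENST00000473886.1, a transcript of 438 bases typed as a processed transcript in GENCODE release 29. Its HA-TAZ libraries had 6.52, 3.86 and 5.11 TPM, against 11.8, 12.7 and 6.09 TPM in controls. HA-TAZ 1 exceeded control c, so the groups overlapped, and the log2 fold change of -0.53 (standard error 0.30) did not pass (limma with Benjamini-Hochberg, adjusted p = 0.318). It rests on few reads, a mean of 112.6 estimated counts in the authors' deposited table, and a short transcript turns few reads into a large TPM. With transcripts typed as non-coding left out, an alternative added after seeing the data, the GSK3B log2 fold change was -0.0014 (limma with Benjamini-Hochberg, adjusted p = 0.989). The median of all genes in that test was 0.13, so GSK3B still lay below it. As deposited the coding transcripts alone were at 18.5, 21.5 and 18.0 TPM in HA-TAZ libraries and 27.5, 24.0 and 21.9 TPM in controls, lower without overlap.

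The stretch that separates the short transcript from the coding ones is shown because most of the difference in the group means of the scaled GSK3B sum lay in this transcript. In GENCODE release 29 its exons 2 and 3 are joined without a coding exon of 99 bases at chr3:119843255-119843353 (GRCh38, minus strand). Lower case marks the end of exon 2 and capitals the start of exon 3, transcript bases 254 to 313. Of the words of 31 bases in the transcript, 27 occur in no other GENCODE release 29 transcript, and all of them lie between bases 255 and 311.
GSK3B ENST00000473886.1: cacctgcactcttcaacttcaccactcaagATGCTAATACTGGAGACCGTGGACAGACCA

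CTNNB1 (ENSG00000168036), which encodes beta-catenin, was at 24.1, 26.9 and 25.9 TPM in HA-TAZ libraries and 26.6, 27.9 and 25.6 TPM in controls. These overlapped. On the scaled values all HA-TAZ libraries were higher, with means of 28.5 ± 0.491 against 23.6 ± 1.86 (SD, n = 3 each). The log2 fold change was 0.26 (standard error 0.07, 95% interval from 0.10 to 0.43), short of the threshold (limma with Benjamini-Hochberg, adjusted p = 0.0653). As deposited it was -0.06, so no direction can be given without choosing a scale. The transcripts ENST00000396183.3 and ENST00000396185.3 led in level, with log2 fold changes of 0.33 and 0.56 (limma with Benjamini-Hochberg, adjusted p = 0.238 and 0.141). Transcripts typed as non-coding held 7.17, 7.66 and 9.39% of CTNNB1 in HA-TAZ libraries and 15.5, 11.7 and 11.5% in controls. This share does not depend on the scaling, and the groups did not overlap, although the smallest p of the exact two-sided permutation test for 3 against 3 libraries is 0.1. Of 9 tested member gene IDs with both kinds of transcript, 2 did not overlap in this share, CTNNB1 and BCL9 ENSG00000116128, where 27.9% of 10010 such genes did not.

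**Figure D3:**
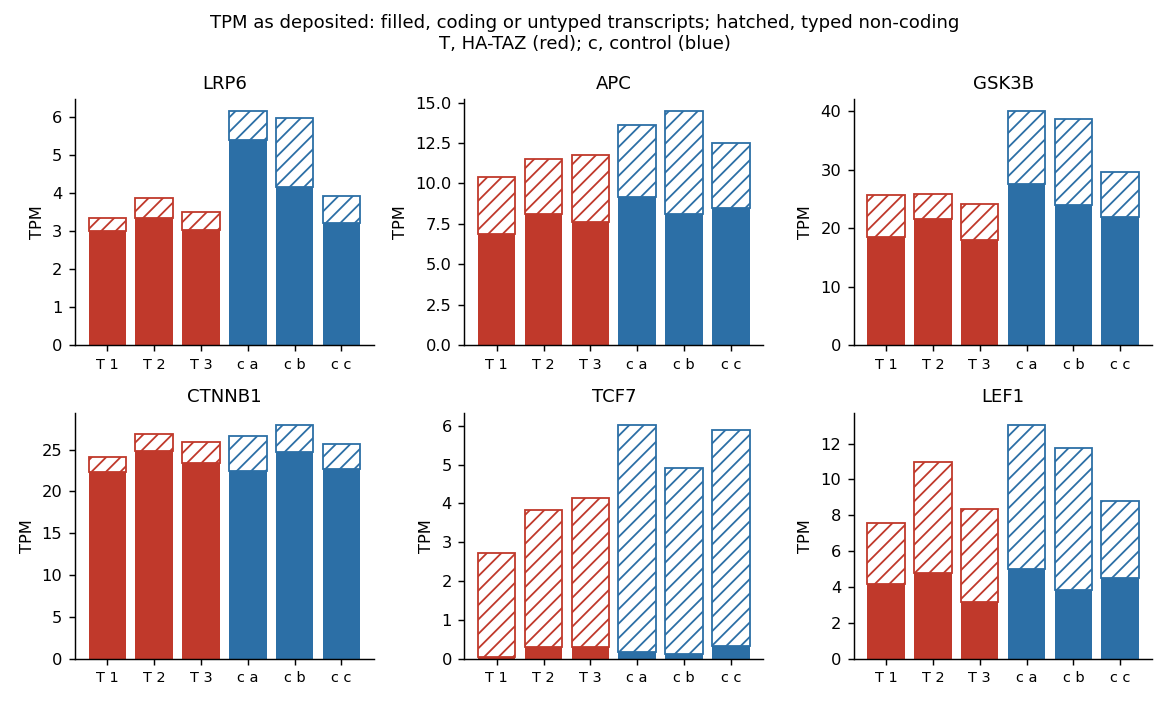
TPM as deposited of 6 members in each library, split into coding or untyped transcripts (filled) and all other types in GENCODE release 29 (hatched). The hatched part is called typed as non-coding in the text and includes transcripts typed for nonsense-mediated decay. Red bars are HA-TAZ 1 to 3 and blue bars controls a to c. Hatching fills nearly all of TCF7 in each library, and the hatched part of GSK3B is tallest in controls a and b.

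With transcripts typed as non-coding left out of every gene, 3 members were called higher in limma with Benjamini-Hochberg adjustment. They were CTNNB1 (log2 fold change 0.34, adjusted p = 0.0325), AXIN1 (0.39, adjusted p = 0.0268) and the second BCL9 gene ID (0.33, adjusted p = 0.0211). All 3 transcripts of that BCL9 gene ID are untyped, so nothing was left out of it and its fold change did not move. Its ENST00000584495.1 and ENST00000583396.1 have the same values as transcripts left out of ENSG00000116128, which went to -0.04 (limma with Benjamini-Hochberg, adjusted p = 0.831). Whether the coding RNA of BCL9 rose is thus not shown. In that test 21.4% of 14077 genes were called higher, and the median of all genes rose to 0.13. The same 3 were called when genes below a mean of 5 TPM were left out, where 15.8% of 12613 genes were called higher.

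The nuclear factors differed in level. TCF7 (ENSG00000081059), also known as TCF-1 and best known from T cells, was at 2.72, 3.82 and 4.15 TPM in HA-TAZ libraries. Controls a, b and c had 6.02, 4.91 and 5.89 TPM. All HA-TAZ libraries were lower as deposited. After scaling HA-TAZ 3, at 4.64, was above control b, at 4.45, and the groups overlapped. The log2 fold change was -0.27 (standard error 0.14, 95% interval from -0.61 to 0.06; limma with Benjamini-Hochberg, adjusted p = 0.234). As deposited it was -0.54 (limma with Benjamini-Hochberg, adjusted p = 0.0615).

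Little of the TCF7 signal came from coding transcripts. Transcripts typed as non-coding, mostly retained introns, held 98.1, 92.0 and 93.0% of it in HA-TAZ libraries and 97.1, 97.7 and 94.3% in controls. The coding and untyped transcripts together did not exceed 0.338 TPM in any library, and without the non-coding ones TCF7 was too low to be tested. The most abundant transcript, ENST00000517478.1, has 572 bases and is typed as a processed transcript. Its HA-TAZ libraries had 0.485, 0.566 and 0.978 TPM, against 1.20, 1.44 and 1.91 TPM in controls, with no overlap as deposited and overlap after scaling. Its log2 fold change was -0.42 (limma with Benjamini-Hochberg, adjusted p = 0.236). The second in level, the retained intron ENST00000519238.1, was below the filter and had an effect of -0.42 in natural log units in the authors' deposited table, with a q-value of 0.134. TCF7 shares exon sequence with SKP1 on the opposite strand in 1 transcript, ENST00000520699.1, which was listed at 0 in all 6 libraries.

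The junction into the last exon of the leading transcript is shown because its last exon sets it apart from the coding transcripts of TCF7. Lower case marks the end of exon 3 and capitals the start of exon 4, transcript bases 213 to 272 in GENCODE release 29. In that release 330 words of 31 bases, between base 213 and the end at base 572, occur in no other transcript.
TCF7 ENST00000517478.1: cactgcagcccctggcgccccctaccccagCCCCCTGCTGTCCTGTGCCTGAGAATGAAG

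TCF7L2 (ENSG00000148737), also called TCF-4 and the leading TCF of the gut epithelium, was low in every library. Its HA-TAZ libraries had 0.193, 0.201 and 0.157 TPM, against 0.180, 0.294 and 0.361 TPM in controls. The groups overlapped, and a two-sided exact permutation of the scaled values gave p = 0.5. Its leading transcript, ENST00000277945.7, was at 0.296 TPM in control c, at 0.0898 and 0.0274 TPM in HA-TAZ 1 and 3, and listed at 0 in the other 3 libraries. The second, ENST00000346198.4, had 0.109 TPM in HA-TAZ 2, 0.0295 TPM in control b, and 0 elsewhere. The transcript with the highest listed value thus differed between libraries, at levels too low to compare transcripts. The authors' deposited table has statistics for 1 of the 22 transcripts, ENST00000538897.1, with a mean of 2.08 estimated counts, so the counts behind the gene as a whole are unknown.

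LEF1 (ENSG00000138795), a TCF family member of immature lymphocytes, was the most abundant of the 3 factors. Its HA-TAZ libraries had 7.59, 11.0 and 8.34 TPM, against 13.0, 11.8 and 8.80 TPM in controls. The groups overlapped on both scales, with scaled means of 9.91 ± 1.36 and 9.81 ± 1.43 (SD, n = 3 each). The log2 fold change was 0.02 (standard error 0.14, 95% interval from -0.32 to 0.35; limma with Benjamini-Hochberg, adjusted p = 0.953). LEF1 was -0.29 as deposited, -0.08 without HA-TAZ 2 and -0.10 without control c, so no direction is given. Transcripts typed as non-coding, with those typed for nonsense-mediated decay counted among them, held between 44.7 and 67.5% of LEF1. The leading transcripts were ENST00000506680.1, typed for nonsense-mediated decay, at -0.04, and the coding ENST00000265165.1, at 0.28 (limma with Benjamini-Hochberg, adjusted p = 0.932 and 0.274). The use of strand in quantification is not given in the sources used here, and LEF1 shares exons with LEF1-AS1 on the opposite strand, which did not exceed 0.537 TPM.

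TCF7 and LEF1 are also markers of T cells and immature lymphocytes, so other markers were read beside them. Of 8 T cell markers only CD3G reached a mean of 1 TPM. CD3D was at 0 in 4 libraries and at most 0.148 TPM, and TRAT1 was at 0 in all 6. The T cell markers summed to between 1.64 and 1.87 TPM in HA-TAZ libraries and between 2.72 and 3.10 TPM in controls. The 5 B cell markers summed to at most 1.15 TPM. All 8 plasma cell markers were expressed, with sums of 2777 to 3210 TPM in HA-TAZ libraries and 4266 to 4821 TPM in controls, as deposited, and JCHAIN took most of the sum. On the scaled values 3 of the 8 had a positive log2 fold change. The median of the 8 was -0.04, beside 0.0027 for all tested genes. SDC1 stood at 0.41 and JCHAIN at -0.29, and neither passed (limma with Benjamini-Hochberg, adjusted p = 0.0876 and 0.0936). CD38, a surface enzyme of plasma cells, fell by 0.57 on the log2 scale (limma with Benjamini-Hochberg, adjusted p = 0.0243). It was the only one of the 8 called on the scaled values, where 8.50% of all tested genes were called. As deposited 5 of the 8 were called lower. On that scale 13.5% of all tested genes were called lower, and the median log2 fold change of all was -0.27. The part of these differences in the values of TCF7 and LEF1 was not tested. In bulk RNA, fewer cells of a type and less RNA per cell cannot be told apart.

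BCL9, the adaptor that links beta-catenin to Pygopus proteins, was listed under a pair of gene IDs. ENSG00000116128 was at 6.24, 6.12 and 4.95 TPM in HA-TAZ libraries and 6.98, 6.03 and 5.37 TPM in controls, with overlap on both scales. Its log2 fold change was 0.21 (standard error 0.11, limma with Benjamini-Hochberg, adjusted p = 0.252). ENSG00000266095 was at 11.8, 11.8 and 11.6 TPM in HA-TAZ libraries and 12.4, 11.5 and 10.7 TPM in controls. On the scaled values the HA-TAZ libraries were higher without overlap, 12.3 to 13.9 against 9.93 to 10.5. Its log2 fold change was 0.33 (standard error 0.07, 95% interval from 0.17 to 0.50; limma with Benjamini-Hochberg, adjusted p = 0.0427), the only call among the members.

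That call depended on the setting. It was lost when any of the 6 libraries was left out, HA-TAZ 1, 2 or 3 or control a, b or c, with limma Benjamini-Hochberg adjusted p-values from 0.0889 to 0.128. The log2 fold change in these smaller fits ran from 0.29 to 0.38. It was also lost without a level filter and without the intensity trend (limma with Benjamini-Hochberg, adjusted p = 0.0684 and 0.06). The call held with a pseudocount of 0.1, with factors from tested genes and at a mean of at least 5 TPM (limma with Benjamini-Hochberg, adjusted p = 0.0413, 0.0484 and 0.0278). As deposited the log2 fold change was 0.02. With factors from genes at a mean of at least 10 TPM, the adjusted p in limma with Benjamini-Hochberg was 0.0716.

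The BCL9 gene IDs also share reads. ENST00000497938.1 and ENST00000584495.1, 1 in each gene ID, have the same value in every library. So do ENST00000473292.1 and ENST00000583396.1. Summed over both IDs, BCL9 was at 18.1, 17.9 and 16.5 TPM in HA-TAZ libraries and 19.4, 17.6 and 16.1 TPM in controls. The scaled sum was higher in all HA-TAZ libraries, with a log2 fold change of 0.31 (limma with Benjamini-Hochberg, adjusted p = 0.0513). The long transcript of the called ID, ENST00000585295.1, had a q-value of 0.0164 by the authors' deposited table and an effect of 0.21 in natural log units. ENST00000234739.3, the coding transcript of the other ID, had an effect of -0.05 with a q-value of 0.914 there. It held 39.3, 40.0 and 33.9% of its gene ID in HA-TAZ libraries and 46.8, 44.3 and 49.3% in controls, the only 1 of 10 leading transcripts whose share did not overlap between groups (exact two-sided permutation p = 0.1, Benjamini-Hochberg adjusted p = 0.6). Over 13956 tested genes with more than 1 transcript, this share did not overlap for 25.0%.

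Over transcripts, 101 of the 128 were above 0 in some library and 28 reached a mean of 1 TPM. In limma 0 of the 28 were called after Benjamini-Hochberg adjustment, where 0.569% of 57448 transcripts were called, and 5 had an unadjusted p under 0.05, against 24.3% of all. The authors' deposited table has statistics for 66 member transcripts, and 2 of them, ENST00000354866.3 of AXIN1 and ENST00000585295.1 of BCL9, had a q-value under 0.05. The share over all 109487 transcripts with statistics there was 5.68%. GENCODE release 29 types 70 of the 128 as protein coding, and 11 were untyped. The other 47 have another type, nonsense-mediated decay included, and were counted as non-coding.

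Ratios between a member and its paralogue within a library need no scaling, and 6 such pairs were formed after seeing the data. GSK3B over GSK3A, the other GSK3 kinase, was 0.709, 0.643 and 0.685 in HA-TAZ libraries and 0.868, 0.964 and 0.809 in controls, without overlap. AXIN2 over AXIN1 was 0.109, 0.145 and 0.157 in HA-TAZ libraries and 0.191, 0.228 and 0.171 in controls, also without overlap. BCL9 over BCL9L, a second adaptor of the same kind, was 3.07, 3.78 and 4.78 in HA-TAZ libraries and 1.69, 1.58 and 2.15 in controls, again without overlap. BCL9L alone had a log2 fold change of -0.66 (limma with Benjamini-Hochberg, adjusted p = 0.105), and as deposited it was called lower at -0.95 (limma with Benjamini-Hochberg, adjusted p = 0.0433). In each of these 3 pairs p by exact two-sided permutation was 0.1, the smallest it can give, and 0.2 after Benjamini-Hochberg adjustment over the 6. Groups without overlap were common among single genes, 38.7% on the scaled values, and no such share was computed over other pairs, so the count of 3 in 6 is a description. TCF7 over LEF1, LRP6 over LRP5 and CTNNB1 over JUP, the gene of plakoglobin, overlapped between groups.

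**Figure D4:**
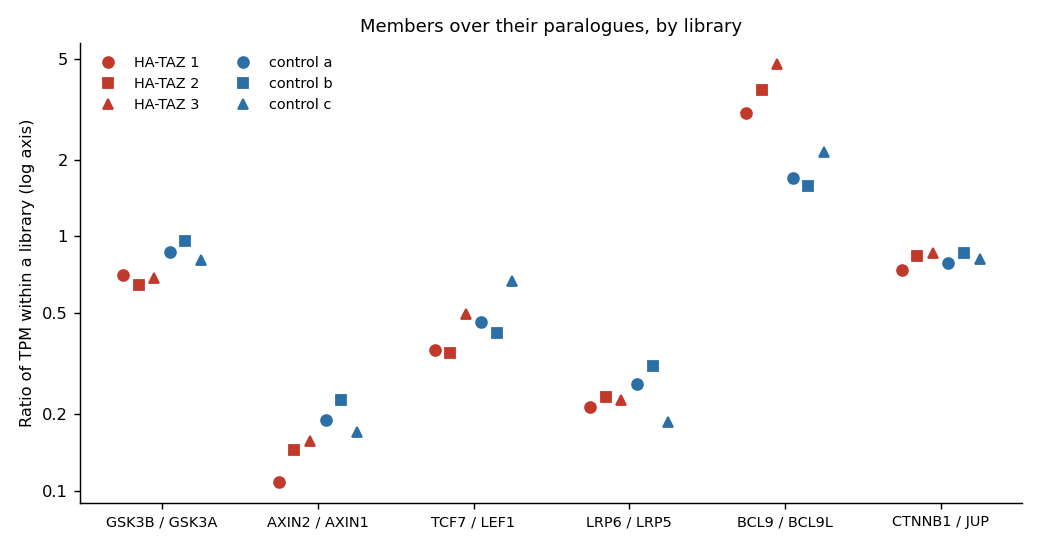
Ratio of the TPM of each member to that of its paralogue within each library, on a log axis. Each point is a library, red for HA-TAZ and blue for control. The red points of GSK3B over GSK3A lie between 0.643 and 0.709 and the blue ones between 0.809 and 0.964, and BCL9 over BCL9L shows the widest gap between groups.

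The other genes of the pathway came from 6 lists chosen by role, with 131 gene IDs. Of these, 74 were tested, 9 were called higher and 0 lower, where 6.15% of all tested genes were called higher. The direction of the calls depended on the scale: as deposited 3 were called higher and 9 lower, where 1.15% of all tested genes were called higher and 13.5% lower. The median scaled log2 fold change of the 74 was 0.16, beside 0.0027 for all tested genes. Higher calls were more common at higher levels. With genes below a mean of 5 TPM left out, 15.8% of 12613 genes were called higher, among them 11 pathway genes. Among 22 gene IDs of Wnt ligands and their processing, 6 were tested and 0 called in limma. WNT8B alone had an unadjusted p under 0.05, at -0.35, and was called lower as deposited at -0.53 (limma with Benjamini-Hochberg, adjusted p = 0.111 and 0.0403). PORCN counts as 2 of the 6, with the same values under both of its gene IDs. WNT10B and WNT10A led them, with log2 fold changes of 0.17 and 0.20 (limma with Benjamini-Hochberg, adjusted p = 0.304 and 0.331). WNT10B had 26.1 ± 0.967 TPM in HA-TAZ libraries and 29.1 ± 1.33 TPM in controls (SD, n = 3 each). Of the 24 receptor gene IDs 8 were tested and 0 called in limma. FZD8 and RYK, both lower, had an unadjusted p under 0.05, 2 of 8 against the 31.0% of all tested genes. LRP5 and RYK were the most abundant, with log2 fold changes of -0.08 and -0.21 (limma with Benjamini-Hochberg, adjusted p = 0.441 and 0.156). As deposited 4 of the 8 were called lower, LRP5 at -0.40, RYK at -0.53, FZD6 at -0.35 and FZD8 at -0.52 (limma with Benjamini-Hochberg, adjusted p = 0.0411, 0.0433, 0.0411 and 0.0391). Of 14 secreted or surface antagonists only SFRP4 was tested, at -0.11 (limma with Benjamini-Hochberg, adjusted p = 0.685).

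Cytoplasmic partners of the destruction complex held 4 of the 9 calls, out of 29 tested, where 6.15% of all tested genes were called higher. CSNK1E, a CK1 kinase, rose the most of the 4, from 21.3, 21.8 and 21.7 TPM in controls to 26.9, 27.1 and 24.8 TPM in HA-TAZ libraries, with a log2 fold change of 0.59 (limma with Benjamini-Hochberg, adjusted p = 0.0227). CSNK1A1 and CSNK1D, further CK1 kinases, rose by 0.28 each (limma with Benjamini-Hochberg, adjusted p = 0.0361 and 0.0488). PPP2R1A, the scaffold of the phosphatase PP2A, rose by 0.39 (limma with Benjamini-Hochberg, adjusted p = 0.0418). As deposited CSNK1E was 0.27 and still called (limma with Benjamini-Hochberg, adjusted p = 0.0445), whereas CSNK1A1, CSNK1D and PPP2R1A were not, at -0.05, -0.05 and 0.06. TNKS and CTNNA1 were called lower as deposited, at -0.50 and -0.48 (limma with Benjamini-Hochberg, adjusted p = 0.0337 and 0.0273), and were not called after scaling. The calls of CSNK1A1, CSNK1D and PPP2R1A were lost without any 1 of the 6 libraries, and that of CSNK1E without HA-TAZ 1, 2 or 3 or control b or c. SKP1, a subunit of the ubiquitin ligase, had a change of 0.26 (limma with Benjamini-Hochberg, adjusted p = 0.0658).

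Of 18 nuclear partners tested 2 were called, both higher, where 6.15% of all tested genes were called higher. HIPK2, a kinase reported to phosphorylate TCF factors, had 16.0, 17.8 and 15.0 TPM in HA-TAZ libraries and 13.7, 12.1 and 10.9 TPM in controls. It rose by 0.70 (limma with Benjamini-Hochberg, adjusted p = 0.011). As deposited HIPK2 was 0.39 (limma with Benjamini-Hochberg, adjusted p = 0.059), and its call was lost without HA-TAZ 1, HA-TAZ 2 or control b. SMARCA4, the BRG1 chromatin remodeller, rose by 0.26 (limma with Benjamini-Hochberg, adjusted p = 0.0352) and was -0.07 as deposited. Its call was lost without any 1 of the 6 libraries. As deposited neither was called, and BCL9L and CREBBP were called lower, at -0.95 and -0.34 (limma with Benjamini-Hochberg, adjusted p = 0.0433 and 0.0396). TLE5 and CTBP1 led the nuclear partners in level, with changes of 0.30 and 0.25 that did not pass (limma with Benjamini-Hochberg, adjusted p = 0.0916 and 0.0875).

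Among 20 textbook target genes 12 were tested and 3 were called higher, where 6.15% of all tested genes were called higher. SOX9, a transcription factor, had 4.94, 5.63 and 4.64 TPM in HA-TAZ libraries and 2.09, 1.70 and 1.48 TPM in controls, a rise of 1.39 (limma with Benjamini-Hochberg, adjusted p = 0.00457). JUN, an AP-1 subunit, had 16.0, 15.9 and 15.7 TPM in HA-TAZ libraries and 8.77, 9.11 and 8.90 TPM in controls, a rise of 1.07 (limma with Benjamini-Hochberg, adjusted p = 0.00624). CD44, a receptor for hyaluronan, rose by 0.74 (limma with Benjamini-Hochberg, adjusted p = 0.0107). SOX9 and JUN were also called as deposited, at 1.14 and 0.77 (limma with Benjamini-Hochberg, adjusted p = 0.0204 and 0.00993), and they stayed called without any 1 of the 6 libraries. CD44 was 0.42 as deposited (limma with Benjamini-Hochberg, adjusted p = 0.0507), and its call was lost without HA-TAZ 1 or HA-TAZ 2. MYC and BIRC5, the most abundant targets, had log2 fold changes of 0.22 and 0.29 that did not pass (limma with Benjamini-Hochberg, adjusted p = 0.07 and 0.0936). AXIN2, LEF1 and TCF7 are also known as targets of the pathway. They were read among the members, and none of them was called. Of the 20, 8 stayed under 1 TPM in every library, among them SP5 and NKD1, which are read as pathway targets in other tissues.

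**Figure D5:**
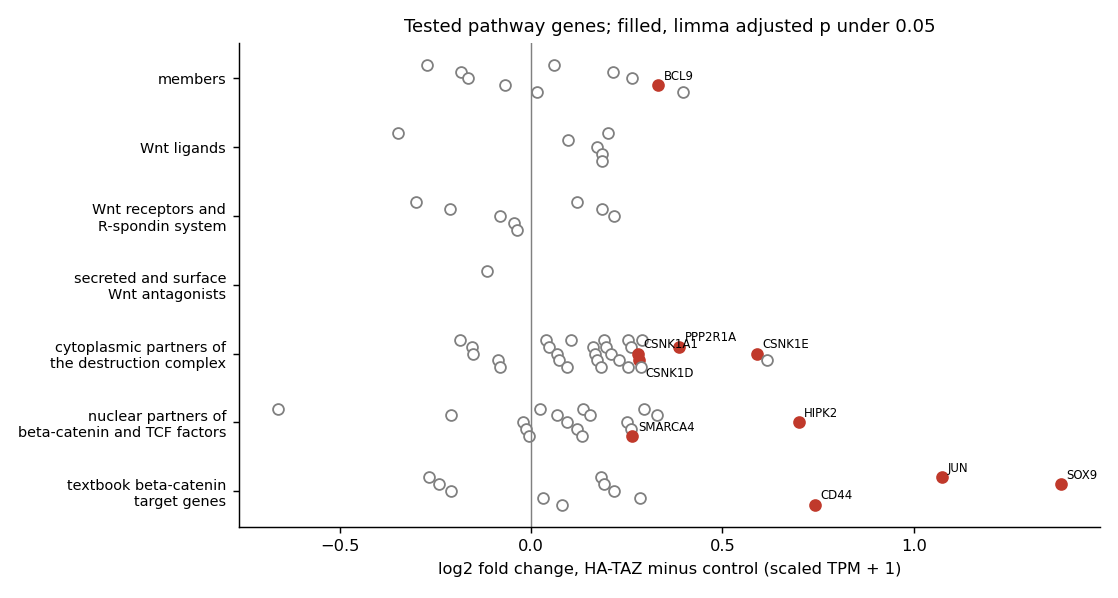
Log2 fold change of every tested gene ID in the member list and the 6 pathway lists, HA-TAZ minus control on log2(scaled TPM + 1). Each circle is a gene ID, filled and named where the limma Benjamini-Hochberg adjusted p is under 0.05. SOX9 and JUN lie farthest to the right, at 1.39 and 1.07, and no filled circle lies below 0 on this scale, whereas 9 pathway genes were called lower as deposited.

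Promoter sequences of 8 members, 12 in all, matched in a RefSeq table (GRCh38.p14), and the 250 bases before each start were searched. One search was for TCF words on either strand, CTTTGAA and CTTTGAT or CTTTGTA and CTTTGTT, which are found in 12.0% of 35116 promoters. The other was for the TEAD word GGAATG on either strand, found in 11.9%. The windows around the 3 matches are shown because they hold letters that these factors are known to bind, with the matched word in capitals. The TCF7 window is chr5:134123541-134123601, the TCF7L2 window chr10:113126473-113126533 and the APC window chr5:112737772-112737831, all on the plus strand. A match is a description of letters and no measured site, and none of these genes was called.
TCF7, TCF word on the opposite strand: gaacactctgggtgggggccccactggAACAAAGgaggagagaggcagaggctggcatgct
TCF7L2, TCF word on the gene's strand: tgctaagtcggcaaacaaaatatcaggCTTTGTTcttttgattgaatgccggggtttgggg
APC, TEAD word on the opposite strand: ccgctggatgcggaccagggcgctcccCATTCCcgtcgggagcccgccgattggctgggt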

How the data were processed

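Total RNA of 6 KMS27 libraries was depleted of ribosomal RNA and sequenced with a stranded kit, per the labels' protocols. The submitters' processing notes name kallisto 0.46.0, sleuth 0.30.0 and GRCh37, and the annotation is not given in the sources used here. The authors deposited TPM per transcript, relative to all transcripts of a library, so depth per library is unknown. The authors' deposited table of a Wald test gives a p-value and q-value per transcript, an effect and a mean on a natural log scale, and a score per test that was not used.

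TPM was summed per gene ID with the pairing in the authors' table. Gene IDs were divided by median-of-ratios factors over the 33614 genes above 0 in all libraries (0.849, 0.959 and 0.893 for HA-TAZ 1 to 3, 1.23, 1.10 and 1.08 for controls a to c). Genes with a mean of at least 1 TPM were tested with limma 3.58.1 in R 4.3.3, on log2(scaled TPM + 1) with its trend option, as a two-sided test. P-values were adjusted by Benjamini-Hochberg over all of them, and 0.05 was the threshold. Near the pseudocount of 1 this log2 scale makes changes look smaller. Single values were compared with an exact permutation test in Python 3.11.15. The script was tested on simulated data. Alternatives changed the pseudocount, the level filter, the scaling, the trend, the transcripts summed and the libraries used.

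All members were named in every gene ID, with the 2 leading transcripts of each and those with a q-value under 0.05 in the authors' table. Per pathway list, up to 4 called genes and the 2 most abundant tested genes were named. SP5, NKD1, WNT8B, FZD6, FZD8, TNKS, CTNNA1, CREBBP, BCL9L, the single cell type markers given and the transcripts ENST00000540527.1, ENST00000316626.5, ENST00000538897.1, ENST00000473292.1 and ENST00000583396.1 were named after their values were seen. The members and lists were chosen with earlier results of these data known. Transcript types, exons and sequences came from GENCODE release 29 (GRCh38), matched by transcript ID, and promoters from RefSeq. Every type other than protein coding was counted as non-coding, also nonsense-mediated decay, and untyped transcripts were kept with the coding ones.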

Additional observations from a re-analysis of the deposited data

How the results depend on the processing

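No paired analysis was possible because the name of the control columns is in no label, so their numbers match no sample. For the members, 1 call (1 higher, 0 lower) became 0 without a level filter, with factors from genes at a mean of at least 10 TPM, without the intensity trend, with gene IDs summed per symbol (added after seeing the data) and without any 1 library (0 to 0), and 3 (3 higher) at a mean of at least 5 TPM or without transcripts typed as non-coding (also added). As deposited 1 member was called, 0 higher and 1 lower. Higher calls among pathway genes went from 9 to 5 without a level filter, with the factors from genes at 10 TPM and without the trend, to 2 to 5 without 1 library, and to 23 of 69 without transcripts typed as non-coding, where the background also rose. As deposited 3 were higher and 9 lower. No share of all tested genes is given without a level filter, with the factors from genes at 10 TPM, without the trend or without 1 library. Whether calls were lost more often among the members and pathway genes than among all genes was therefore not tested. Member transcripts called by limma stayed at 0 under each alternative run, and at a q-value under 0.01 the authors' deposited table held 0 in place of 2. Signs reversed for CTNNB1 as deposited (-0.0594), for APC as deposited and with factors from genes at 10 TPM (-0.25 and -0.0397), for AXIN2 without 1 library (-0.14 to 0.02, among them 0.0008 and 0.0155), for LEF1 as deposited, with factors from genes at 10 TPM, with factors from tested genes (added) and without 1 library (-0.29, -0.0822, -0.0153, and -0.0985 to 0.0825, among them -0.0811), and for BCL9 ENSG00000116128 as deposited and without transcripts typed as non-coding (-0.0737 and -0.0408). GSK3B, TCF7 and LRP6 kept a negative and AXIN1 and BCL9 ENSG00000266095 a positive value under every alternative that gave one. The cause of these dependences was not tested. With 3 libraries a group an exact test cannot go below 0.1, and limma did not test what lay under a mean of 1 TPM, such as TCF7L2 and each coding transcript of TCF7.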
